A study of Sus scrofa with 6 samples.

Results

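The CpGs described here were partly methylated, near the middle of the scale, in control pig embryos although they lie outside the imprinted stretch at SGCE and PEG10. They were chosen by their methylation level in the 3 controls. A CpG qualified when both of its strands had reads in every embryo, the summed strands had at least 10 reads in every embryo, and the mean control level was 35 to 65%. The imprinted stretch, whose 84 measured CpGs run from 74472657 to 74477983 and of which 75 met the same limits, was left out. This gave 850 CpGs of 12135 that could have qualified (7.0%), and of 14091 CpGs with a read in any embryo.

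Whole embryos of a Landrace x Yorkshire x Duroc (LYD) cross were collected at embryonic day 21, and their DNA was bisulfite-sequenced. The 3 controls were untreated. The 3 parthenotes came from oocytes activated by electric pulses without sperm and grown in surrogate gilts, so both of their chromosome sets are maternal. The measured interval runs over chromosome 9 from position 73250031 to 75349903 (Sscrofa11.1). The labels do not say whether embryos of a group share a litter, so the spread between them may not be that of independent animals. Each embryo had 380163 to 406443 reads at CpG cytosines in the interval.

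Methyl groups on CpG cytosines are copied to the new strand when cells divide, and most CpGs of vertebrate tissue are either almost fully methylated or, at CpG-rich gene starts, almost bare. A level near the middle in a bulk sample means that some DNA molecules carried the mark and others did not. This can be 1 parental copy in every cell, as at imprinted genes, both copies in some of the cells, or a sequence difference that removes the CpG from 1 chromosome. The level by itself does not say which of these it is, and in bulk DNA a smaller share of methylated cells cannot be told apart from less methylation in each cell. At a CpG methylated on the maternal copy alone a parthenote should read near full, and at one methylated on the paternal copy alone near 0.

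In parthenotes, 432 of the 850 CpGs (50.8%) stayed at 35 to 65%, 393 (46.2%) lay above and 25 (2.94%) below. Over all 12135 CpGs that could have qualified, 4.61% had a parthenote mean in that range, and among the 11285 others 1.13% did. Parthenote means above 90% or under 20% were rare at the 850. A parthenote mean above 90% was found at 24 of the 850, and 23 of those showed evidence of a DNA variant, the variant sign explained further on. A mean above 80% was found at 79, of which 53 showed that sign. A parthenote mean under 20% was found at 2. Over all 12135 CpGs the shares above 90%, above 80% and under 20% were 52.9%, 80.5% and 3.28%. The share that stayed in the range depended on single controls, since they chose the CpGs. It was 58.0% with the choice made without control 1 and 34.96% without control 2, and the CpGs above 65% in parthenotes then numbered 249 and 716. The count below 35% in parthenotes was 44 without parthenote 1.

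**Figure D1:**
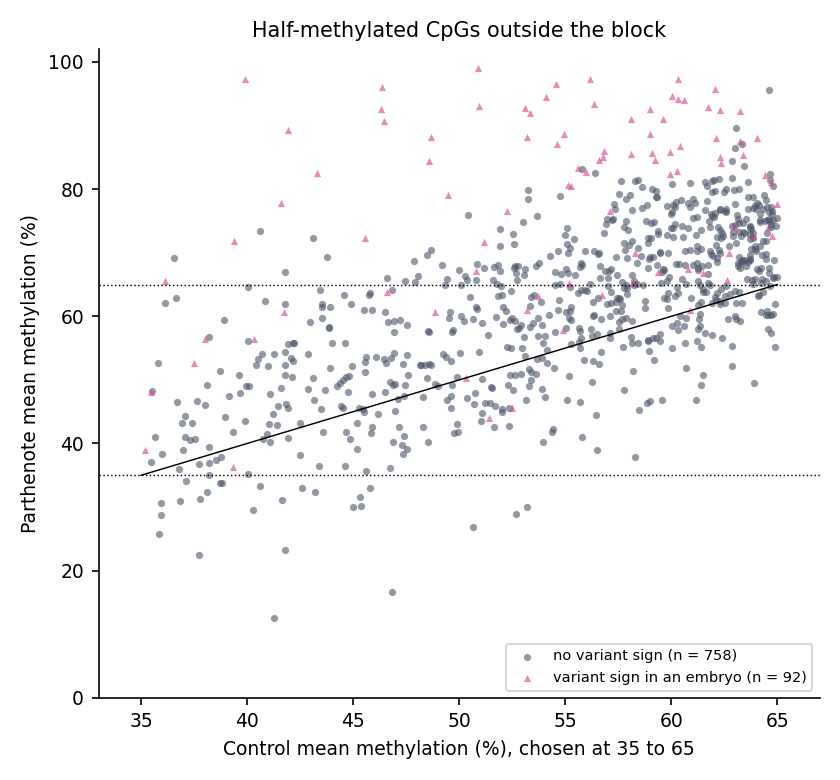
Each point is 1 of the 850 CpGs, with the mean of 3 controls (horizontal axis, %) against the mean of 3 parthenotes (vertical axis, %). Dotted lines mark 35 and 65%, the solid line marks equal levels, and triangles mark the 92 CpGs with a variant sign, 75 of which lie above 65% in parthenotes.

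The chosen CpGs were not spread evenly over the range, and at its upper end most were above 65% in parthenotes. There were 54 CpGs with control means of 35 to 40% and 277 with control means of 60 to 65%. Between 40 and 45% in controls, 82.1% of 84 CpGs were at 35 to 65% in parthenotes, against 63.6% of 140 CpGs between 50 and 55% and 24.9% of the 277. Just outside the limits, the share was 63.0% of 46 CpGs at 30 to 35% and 12.1% of the 389 at 65 to 70%. The parthenote mean of the 60 to 65% class was 71.2%, against 75.4% in the class above it. The limits therefore cut through a continuous distribution. Chosen the other way, by parthenote means of 35 to 65%, 560 CpGs qualified. The 432 shared CpGs are 50.8% of the control list and 77.1% of the parthenote list.

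Averaged over the 850 CpGs, the level was 48.7%, 60.6% and 54.2% in controls 1 to 3. It was 60.4%, 63.1% and 64.7% in parthenotes 1 to 3. Control 1 was the lowest and control 2 overlapped the parthenotes. The means were 54.5% ± 5.98 (SD, n = 3) and 62.7% ± 2.2 (SD, n = 3). Since control levels chose the CpGs, this difference has no test. At the 11285 other CpGs control 1 was also lowest, at 77.8%, against 85.1 to 88.01% in the other embryos. Each single level is imprecise. Median depth at the chosen CpGs was 30 to 32 reads, depending on the embryo, and their 95% Wilson intervals, which cover counting error only, had a median width of 29.8 to 32.2 percentage points.

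**Figure D2:**
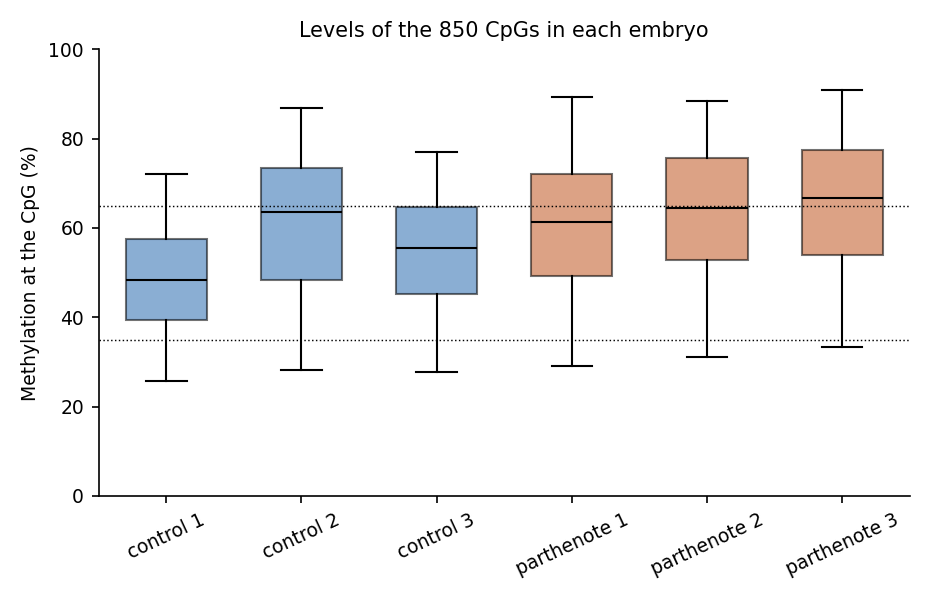
Methylation (%) of the 850 CpGs in each embryo, with boxes from the lower to the upper quartile, a line at the median and whiskers at the 5th and 95th percentiles. Medians run from 48.4% in control 1 to 66.7% in parthenote 3, and dotted lines mark 35 and 65%.

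A middle mean did not imply a middle level in each control. All 3 controls lay at 35 to 65% at 166 of the 850 CpGs (19.5%), 2 did at 428, 1 at 198 and none at 58. The highest and the lowest control were a median of 28.0 percentage points apart, against 12.5 at the other CpGs. In parthenotes, which did not choose the CpGs, the same gap was 18.3 points, against 8.33 at the others. Counting error is wider at middle levels, and the others averaged 83.9% in controls and 86.2% in parthenotes. The wider gaps therefore cannot be read as more variation between embryos. The Wilson intervals of the highest and lowest embryo did not overlap at 271 CpGs in controls (31.9%) and at 132 in parthenotes (15.5%). Controls that differ can average into the range, so the choice enters the control count and the groups are not on equal terms here. This overlap was not counted at the other CpGs. All 6 embryos lay at 35 to 65% at 51 CpGs (6.0%). Of these, 20 were intergenic and 23 intronic, and 15 lay between BET1 and COL1A2.

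The deepest of the CpGs with a middle level in all 6 embryos, at 75340924, lies beyond ASB4 on the side of DYNC1I1, the gene of a dynein subunit. It was at 59.5%, 57.8% and 56.2% in the controls and at 55.7%, 60.6% and 63.0% in the parthenotes (42 to 71 reads). No embryo stood apart there. The CpG at 73255662, between VPS50 and CALCR, was at 44.4%, 48.1% and 59.6% in controls and at 53.7%, 42.2% and 48.0% in parthenotes (41 to 64 reads). The groups overlapped, with control 3 the highest embryo. At 74468356 in an intron of SGCE, which encodes epsilon-sarcoglycan of the muscle membrane, the levels were 51.6%, 57.5% and 57.9% in controls. They were 62.0%, 51.2% and 54.7% in parthenotes (38 to 64 reads). This intronic CpG lies within 10000 bp of the left-out stretch. The other 2 named by depth, at 73438312 in an intron of GNGT1 and at 73330754 in an intron of CALCR, had control means of 53.3% and 54.0% and parthenote means of 49.0% and 47.3%.

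Choosing CpGs by 2 controls and reading the control left out set parthenotes beside a control on equal terms, because neither the third control nor the parthenotes then took part in the choice. Of 650 CpGs chosen by controls 2 and 3, 62.3% were at 35 to 65% in control 1 and 49.2 to 51.1% in the parthenotes. Of 971 chosen by controls 1 and 2, the share was 44.2% in control 3 and 37.5 to 40.4% in the parthenotes. Of 1147 chosen by controls 1 and 3, it was 25.02% in control 2, lower than the 28.0 to 42.6% in the parthenotes. Control 2 was above 65% at 68.4% of those CpGs. The parthenotes thus lay below the third control in 2 of the 3 choices and above it in the other. The 3 choices share controls, and no test was made.

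Differences between groups were fitted with edgeR at all 12219 CpGs with enough reads, the left-out stretch included, with calls made at an adjusted p under 0.05. Calls higher in parthenotes made up 0.45% of tested CpGs (55, of which 46 lay in the left-out stretch). Of the 850, 8 were called higher. Their control levels are part of this contrast and chose them, so nothing is read from that count. Calls lower in parthenotes were 0% of tested CpGs. Among the 850, edgeR and limma called 0 lower, and 2 were lower at an unadjusted p under 0.05 with either tool. At that unadjusted limit 67 of the 850 were higher with edgeR and 47 with limma. The choice by control levels enters these counts too, so nothing is read from them. All 8 called CpGs carried a variant sign, and none of the 758 without one was called (0, smallest edgeR adjusted p = 0.141). Of those 758, 17 were at an unadjusted edgeR p under 0.05. Over all 12219 tested CpGs, 427 were below that limit with edgeR and 491 with limma, in either direction. These were not counted by direction. With single embryos left out, the CpGs of the 850 called in either direction were 14 without control 1, 3 without control 3, parthenote 1 or parthenote 2, and 4 without parthenote 3, and all of these were higher in parthenotes. Without control 2 there were also 14, of which 13 were higher and 1 was lower. The calls over all 12219 tested CpGs were then 64, 66 and 40 without controls 1 to 3. Without parthenotes 1 to 3 they were 45, 21 and 27.

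A variant sign means that, in at least 1 embryo, reads from the strand opposite the cytosine showed A at 20% or more of at least 10 reads. Bisulfite treatment does not touch that base, so A there marks a C-to-T difference in the DNA itself, which the methylation count reads as an unmethylated C. Signs were found at 92 of the 850 CpGs (10.8%) and at 215 of the 11285 others (1.91%). Raw control levels chose the CpGs, and a C-to-T difference in a control lowers that level. The choice therefore favours CpGs with a sign in controls. Their larger share here, and their higher levels in parthenotes, are in part built in by the choice. Controls 1 to 3 carried 63, 26 and 46 of them at the chosen CpGs, and the parthenotes 4, 9 and 5. At the other CpGs controls 1 to 3 carried 184, 16 and 12, and the parthenotes 8, 4 and 3. Most signs there thus came from control 1 alone. At the signed CpGs the median level was 40% in embryos with the sign and 81.3% in embryos without it. In parthenotes 75 of these 92 CpGs were above 65% and 17 stayed in the range, against 318 and 415 of the 758 CpGs without a sign. Without the signed CpGs, 54.7% stayed in the range. The authors' correction for such variants can only lower a total, and so can only raise a level. With the corrected totals, 45 of the 850 were above 65% in controls.

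Single CpGs show what the sign looks like. At 73499418 in an intron of GNGT1, which encodes a G protein gamma subunit of photoreceptors, the level was 88.9%, 4.17% and 26.7% in controls and 95.5%, 100% and 96.6% in parthenotes (15 to 32 reads). The share of A on the opposite strand was 0%, 95% and 64.3% in controls 1 to 3 and 0% in each parthenote. At 74053699, between BET1 and COL1A2, the controls agreed better, at 48.1%, 50% and 54.5%, and the parthenotes were at 100%, 100% and 97.4% (19 to 38 reads). There the opposite strand showed 61.5% A in control 1 and 0% in the other embryos by this measure, which needs 10 reads on a strand. The authors' correction raised its control mean from 50.9% to 71.3%. The 3 CpGs with the widest control ranges, 82.2 to 90.9 percentage points, were all in introns of GNGT1, and each carried a sign (73701110, 73499418 and 73680640).

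Among CpGs without a sign, the largest difference upwards in parthenotes was at 74472469 in an intron of SGCE. This is the chosen CpG nearest to the left-out stretch. It was at 44.7%, 42.6% and 34.6% in controls and at 57.4%, 71.9% and 91.1% in parthenotes (32 to 52 reads). Every parthenote exceeded every control, and the parthenotes were 33.7 points apart. The second, at 74395802 between LOC100738575 and SGCE, was at 28.6%, 58.3% and 22.7% and at 57.6%, 71.9% and 78.1% (21 to 33 reads), with control 2 above parthenote 1. The third, at 74269930 between COL1A2 and CASD1, was at 94.1%, 52.4% and 47.4% in controls and 90%, 100% and 96.9% in parthenotes. The authors' corrected control mean there was 84.1% against 64.6% from raw counts. By the measure above, which needs 10 reads on a strand, the opposite strand showed 0% A in every embryo. The reason for the gap was not tested.

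The 2 largest differences downwards were also in SGCE. At 74405291 the controls were at 63.9%, 13.5% and 63.2% and the parthenotes at 36.4%, 11.11% and 2.44% (27 to 41 reads). At 74407339 the controls were at 35.3%, 18.2% and 70.4% and the parthenotes at 17.1%, 15.2% and 5.26% (27 to 46 reads). In both, control 2 lay within the parthenote range or close to it. The third, at 73269345 between VPS50 and CALCR, was at 32.0%, 69.6% and 56.5% in controls and at 36.0%, 28.0% and 22.7% in parthenotes (22 to 25 reads). Controls and parthenotes overlapped at the first and the third of these CpGs, and not at 74407339.

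By annotation the chosen CpGs lay mostly in introns and between genes, as the measured CpGs did, with smaller shares in exons and 5′ UTRs. Introns held 439 (51.6% of them, 6.96% of measured intronic CpGs) and intergenic DNA 366 (43.1%, 7.68% of measured intergenic CpGs). Exons held 16 of 503 (3.18%, Wilson interval 1.97 to 5.10%), of which 7 were exons of COL1A2. The 5′ UTR held 2 of 162 (1.23%) and the 3′ UTR 13 of 250 (5.2%). In introns 218 of 439 stayed in the range in parthenotes and in intergenic DNA 188 of 366. The promoter column of the deposited tables covered 25 of the 850, at 8.01% of measured promoter CpGs, with no more than 3 per gene at 16 promoters.

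Chosen CpGs were fewest where CpGs are dense. Those with at most 5 other CpGs within 250 bp made up 701 of the 850, at 9.15% of 7662 measured CpGs. Where more than 10 other CpGs lay that close, 21 of 2537 qualified (0.828%). In the densest class, with 21 or more, 20.5% of CpGs were under 35% in controls and 79.4% above 65%, and 1 of 683 qualified. The median number of other CpGs within 250 bp was 3 at the chosen CpGs and 4 at the others.

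Among genes, SGCE and COL1A2 held the largest shares. In SGCE 62 of 467 measured CpGs qualified (13.3%), and in COL1A2, which encodes a chain of type I collagen, 25 of 201 (12.4%). GNGT1 followed with 139 of 1593 (8.73%), the largest number in a gene. ASB4, a SOCS box gene, held 88 of 1120 (7.86%), and CALCR, the calcitonin receptor gene, 56 of 768 (7.29%). PPP1R9A, the gene of the actin-binding protein neurabin 1, held 57 of 1784 (3.2%), and CASD1, a sialic acid acetyltransferase gene, 6 of 400 (1.5%). Outside the left-out stretch the gene PEG10 held 0 of 168, which allows a share of up to 1.79%. The deposited promoter annotation of PEG10 held 3 measured CpGs outside the stretch, which are counted here under SGCE. All 3 qualified, and 0 of them stayed in the range in parthenotes. The largest number in any stretch lay between BET1 and COL1A2, with 214 of 2301 (9.3%), of which 115 stayed in the range in parthenotes.

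**Figure D3:**
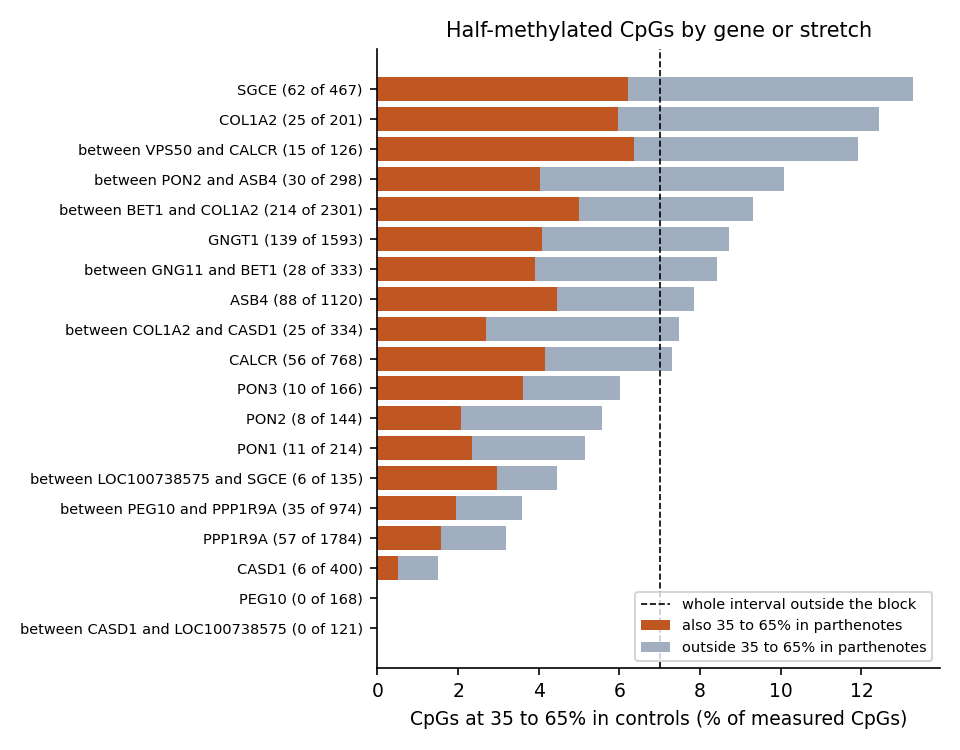
Bars give the CpGs at 35 to 65% in controls as a percentage of measured CpGs in each gene or intergenic stretch with at least 100 measured CpGs, with counts beside the names. The darker part was also at 35 to 65% in parthenotes, and the dashed line is the 7.0% of the whole interval outside the left-out stretch.

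The gene averages by embryo differed in their order. Over the 139 CpGs of GNGT1 the mean was 46.1%, 64.6% and 53.9% in controls and 63.2%, 63.8% and 65.4% in parthenotes. Control 2 lay among the parthenotes there, as it did over the 88 CpGs of ASB4 (47.5%, 61.3% and 54.6% against 59.3%, 61.2% and 64.2%). Over the 62 CpGs of SGCE, control 2 was the lowest embryo, with 54.2%, 48.8% and 58.4% in controls and 58.6%, 59.8% and 58.8% in parthenotes. In PPP1R9A the control averages were close together at 53.9%, 53.5% and 52.3%, and the parthenotes were at 63.5%, 60.6% and 60.5%. Single CpGs of PPP1R9A did not agree so well, with controls a median of 32.5 points apart, against 27.0 in GNGT1 and 23.8 in SGCE. Control levels chose the CpGs of every gene, so these group differences have no test. A variant sign was at 12 of the 57 CpGs of PPP1R9A. Over the 45 without one the levels were 53.4%, 53.3% and 54.4% in controls and 61.2%, 57.2% and 56.7% in parthenotes. In GNGT1, over the 116 CpGs without a sign, control 2 at 64.0% was above all parthenotes (59.8 to 61.5%). In SGCE, over 58 such CpGs, control 3 at 57.72% was above parthenote 1 at 57.2%. Of the CpGs in SGCE, 29 stayed in the range, 26 were above it and 7 below it in the parthenote mean. In PPP1R9A these counts were 28, 25 and 4, and in CALCR 32, 21 and 3.

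The 2 sides of the left-out stretch were unlike. In the 10000 bp on the SGCE side 29 of 89 measured CpGs qualified (32.6%), and 15 of the 29 stayed in the range in parthenotes. In the 10000 bp on the PEG10 side 1 of 170 did (0.588%). Over 50000 bp the shares were 13.6% and 1.67%. The 29 are 46.8% of the chosen CpGs in SGCE. The 5 nearest CpGs formed a chain from 74471781 to 74472470, at 55.3%, 53.8% and 44.1% in controls and at 52.0%, 74.3% and 78.4% in parthenotes. Parthenote 1 lay among the controls in that chain, and parthenotes 2 and 3 lay above them.

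Neighbours often shared the middle level. Of the measured neighbours within 500 bp of a chosen CpG, 22.8% were themselves chosen (1202 of 5267, each pair counted from both ends). Around the other CpGs the share was 3.84%. It counts pairs and so gives more weight to dense stretches, where few CpGs qualify, and it lies below the overall 7.0%. The share around chosen CpGs fell from 38.7% within 50 bp to 16.9% at 251 to 500 bp and 9.81% at 501 to 1000 bp. Around the others it was 1.79%, 5.57% and 5.95% at these distances. At 10001 to 50000 bp from a chosen CpG, 7.87% of measured CpGs were chosen. Sequencing reads span neighbours at short range, so values there share molecules. Of 841 CpGs with a measured neighbour, 491 (58.4%) had a chosen one, while 350 had only neighbours outside 35 to 65%. In most cases the surroundings were more methylated. The mean control level of the neighbours was above 65% at 594 of the 841, in the range at 215 and under 35% at 32.

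CpGs that stayed in the range in parthenotes had a chosen neighbour more often than those above 65%, with 65.5% of 429 against 49.6% of 387. Of the 25 CpGs under 35% in parthenotes, 72.0% had one. This comparison of shares has no test. The CpGs that stayed also had a lower mean control level, 51.2% against 58.9% for those above 65%, and the comparison did not match that level. Neighbours of the CpGs that stayed had means of 67.1% in controls and 70.3% in parthenotes. Around the CpGs above 65% these were 75.7% and 80.2%. Variant signs, whose part in this was not tested, were at 3.94% of the CpGs that stayed and 19.1% of those above 65%.

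Neighbours also shared which embryo was high. For each pair of chosen CpGs, the deviations of the embryos from their own group mean were correlated after the average deviation of each embryo was taken off. Across the 118 pairs within 50 bp the correlation was 0.77 in controls and 0.72 in parthenotes. At 251 to 500 bp (215 pairs) it was 0.37 and 0.48, at 1001 to 2000 bp (469 pairs) 0.19 and 0.23, and at 10001 to 50000 bp 0.03 and 0.04. These are descriptions across pairs that share embryos and, at short range, reads. The values in parthenotes, which took no part in the choice, were near those in controls.

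**Figure D4:**
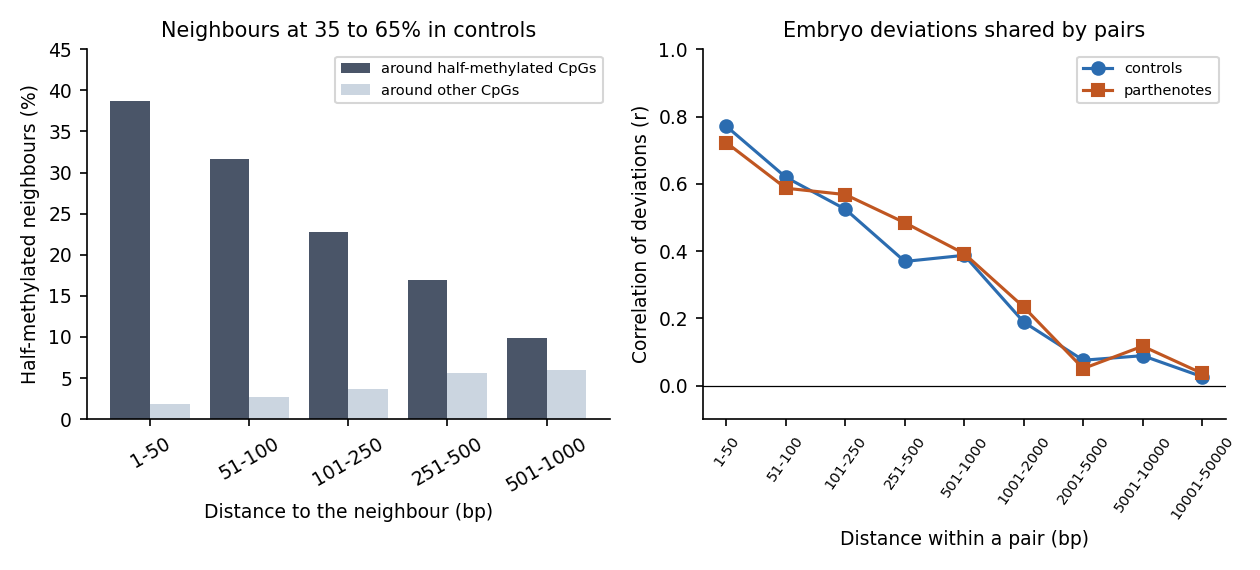
Left, the share of measured neighbours at 35 to 65% in controls (%) by distance (bp), around the chosen CpGs and around the others, from 38.7% against 1.79% within 50 bp. Right, the correlation between the embryos' deviations at the 2 CpGs of a pair by distance (bp), which falls from 0.77 in controls and 0.72 in parthenotes to near 0 beyond 2000 bp.

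Linking chosen CpGs at most 500 bp apart gave 519 chains. Of these, 359 were single CpGs, 84 were pairs and 24 had 5 or more CpGs, with 150 CpGs in those 24. Of the 24, 6 lay between BET1 and COL1A2 and 5 in SGCE. In 19 of the 24 the parthenote mean was at 35 to 65%, in 5 above and in 0 below. All 6 embryos were in the range in 6 of them.

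The chain with the most CpGs, 10 over 1220 bp, lies between BET1 and COL1A2, 20581 bp from COL1A2 (74152685 to 74153904). It was at 35.5%, 66.1% and 24.3% in controls and at 14.1%, 72.0% and 64.5% in parthenotes (242 to 362 reads). The same intergenic stretch held the next, 9 CpGs over 804 bp (74030507 to 74031310), at 41.4%, 75% and 44.1% in controls and 44.5%, 68.4% and 69.0% in parthenotes. In an intron of COL1A2, 7 CpGs (74175692 to 74176713) were at 53.6%, 82.4% and 48.7% and at 47.1%, 72.4% and 74.7%. A chain in an intron of ASB4 (75115283 to 75116435) also had 7 CpGs and was placed after the COL1A2 chain for its longer span. It was at 40.9%, 62.0% and 50.9% in controls and 56.02%, 57.0% and 68.1% in parthenotes. In the first 3 chains control 2 and parthenotes 2 and 3 were high, and controls 1 and 3 and parthenote 1 were low, so that the groups overlapped fully.

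A chain of 8 CpGs in an intron of SGCE (74406986 to 74408718) showed the reverse order. It was at 58.8%, 31.9% and 70.8% in controls and at 72.7%, 46.9% and 42.8% in parthenotes. The other SGCE chain among the 6 with the most CpGs, 9 CpGs over 1238 bp (74466068 to 74467305), was more even, at 51.0%, 43.2% and 53.7% against 59.3%, 55.8% and 51.1% (231 to 290 reads). Its group means were 49.3% ± 5.47 (SD, n = 3) and 55.4% ± 4.13 (SD, n = 3). In an intron of CALCR, 8 CpGs packed into 101 bp (73330701 to 73330801) were at 32.5%, 46.5% and 62.9% in controls and at 36.8%, 32.0% and 48.5% in parthenotes. All 8 measured CpGs of that span qualified, and controls 1 and 3 lay 30.4 points apart there.

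**Figure D5:**
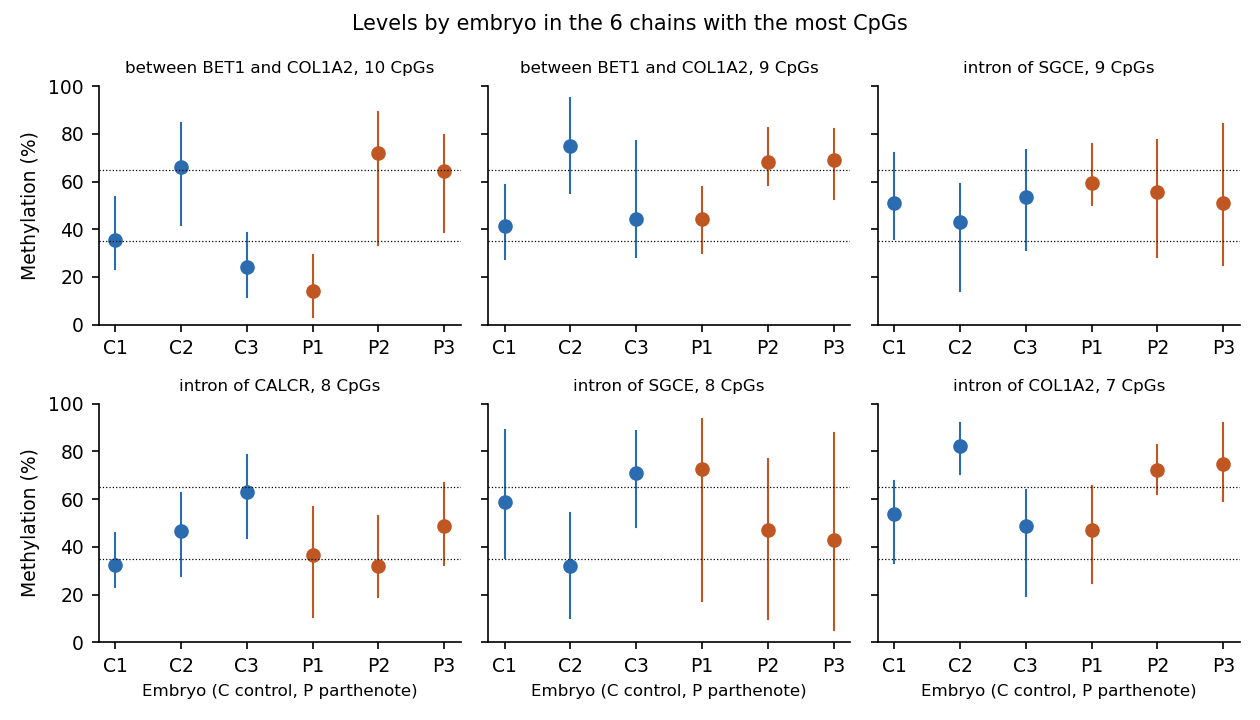
Methylation (%) by embryo in the 6 chains with the most CpGs (of 2 chains with 7 CpGs, the shorter), where dots are methylated over total reads of the chain's CpGs and lines run from its lowest to its highest CpG. Dotted lines mark 35 and 65%, and in the chain of 10 CpGs the embryos range from 14.1% to 72.0%.

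Across the 24 longer chains, control 2 was the highest control in 10, the lowest in 10 and between the others in 4. Where control 2 was highest, parthenote 1 was the lowest parthenote in 9 of 10 chains. Where it was lowest, parthenote 1 was the highest in 7 of 10. Over the 758 CpGs without a variant sign, the levels of control 2, taken as deviations from each CpG's mean over 6 embryos, correlated at 0.34 with parthenote 3 and 0.15 with parthenote 2, and at -0.57 with parthenote 1. Control 3 correlated at 0.25 with parthenote 1 and at -0.45 and -0.49 with parthenotes 2 and 3. At the 11070 other CpGs without a sign the value for control 2 and parthenote 3 was 0.09 and for control 2 and parthenote 1 -0.30. Within groups, at the 758 CpGs, parthenotes 2 and 3 correlated at 0.16, and parthenote 1 with these at -0.42 and -0.45. The controls correlated with each other at -0.48, 0.04 and -0.48. Deviations of 6 embryos sum to 0, so values below 0 are built in. Choosing by the control mean can lower the values among controls further. The highest values, of control 2 with parthenote 3 and of control 3 with parthenote 1, thus crossed the labelled groups. Litter and sex of the embryos are not given in the labels, and their part was not tested.

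The strands of a CpG agreed in most cases. In reads pooled over controls, the levels of the plus and minus strand were a median of 7.56 percentage points apart at the chosen CpGs and 4.45 at the others. Counting error, wider at middle levels, enters this comparison too. A gap over 30 points was seen at 14 of the 850 in controls and at 10 in parthenotes. Among the 11285 others it was seen at 25 in controls and 11 in parthenotes, a smaller share. The widest gap was 54.1 points in controls and 72.2 in parthenotes.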

How the data were processed

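The deposited tables give, per the file headers, the counts of C and of C-or-T reads at each CpG cytosine per strand, with counts of G and of G-or-A reads on the opposite strand. The authors also deposited an expected count, the C-or-T count times the opposite-strand share of G, and a methylation fraction over it. Per the submitters' processing notes, BSMAP 2.87 was used with build Sscrofa11.1. Trimming, duplicate removal and conversion rate are not given in the sources used here.

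Counts of both strands were summed per CpG, and levels are C over C-or-T reads. Methylated and unmethylated counts were tested in edgeR 4.0.16 under R 4.3.3 (quasi-likelihood) over all 12219 CpGs with 10 or more reads and both strands called in every embryo, with Benjamini-Hochberg adjustment. The fit was checked on simulated counts. limma 3.58.1 and the other alternatives are in the closing section. Single CpGs were named by depth, by largest difference in either direction without a variant sign and by control range, and chains by number of CpGs. The CpG rule, lists and names were chosen with earlier results of these data known. Reads have no molecular identifiers, so intervals cover counting error only. Tables and figures were made with Python 3.11.15, numpy 2.4.6, pandas 2.3.3, scipy 1.17.1 and matplotlib 3.10.9.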

Additional observations from a re-analysis of the deposited data

How the results depend on the processing

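Leaving out CpGs with a variant sign in the edgeR fit, or with a sign at 5 or more opposite-strand reads, was chosen after seeing the data, and the other alternatives were planned. Of 97 alternative values, 62 stayed near the reported one. The limit for near was wide, since 595 CpGs at 20 reads and 1147 without control 2 counted as near the 850. The cause of the other moves was not tested, except that stricter limits leave fewer CpGs. At 30 reads in every embryo 173 CpGs qualified, of which 89 stayed at 35 to 65% in parthenotes (51.4%), 77 lay above and 7 below, and 34 were in the range in every control. A range of 40 to 60% gave 520 CpGs, with 233 in it and 260 above it in parthenotes. A range of 30 to 70% gave 1286, with 718 in it. The plus strand alone gave 513, 247 and 243, and the minus strand 509, 240 and 245 (CpGs, in the range and above it in parthenotes). The share of neighbours that were chosen was 25.1% and 27.8% at 20 and 30 reads, and 35.1%, 28.4% and 16.5% within 100, 250 and 1000 bp.

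With each embryo left out in turn, 650 to 1147 CpGs qualified, 377 to 458 stayed in the range in parthenotes, 249 to 716 lay above it and 23 to 44 below it. The chosen CpGs called between groups were then 3 to 14, beside 21 to 66 calls over all tested CpGs. They were 1 with limma, 1 at 20 reads, 3 without the demand on strands, 3 with the corrected totals and 0 with signed CpGs left out of the edgeR fit (24 at an unadjusted p under 0.05). Calls over all tested CpGs in these fits were 38 of 12219, 37 of 8042, 53 of 12359, 49 of 12186 and 50 of 11912. In the last, 351 of the 11912 were at an unadjusted p under 0.05. With the replicate number as a block edgeR called 12, beside 58 of all 12219. Same-numbered embryos did not deviate together (correlations of 0.12, 0.09 and -0.13 across CpGs), so the numbers were not taken to pair embryos. Depth limits the level of a single CpG in a single embryo, whose median Wilson interval spans 29.8 to 32.2 percentage points, about as wide as the range from 35 to 65%.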
